A study of Rattus norvegicus with 10 samples.

Results

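Small GTPases are switch proteins that carry signals to the actin cytoskeleton, to membrane channels and to vesicle traffic. The genes followed here were Gem, Rrad, Rem1 and Rem2, which make up the RGK family, Rnd1 and Rnd3 of the Rnd family, Rhob, which encodes the GTPase RhoB, and Rab20, a Rab GTPase of endosomes. Their members on the array were all probe sets that the platform annotation assigns to one of these symbols alone. This gave 14 probe sets for 8 genes, out of 31042 probe sets tested and 14217 genes with a symbol of their own. The genes were chosen by their measured log2 values with all time points known, 6 of them for high levels at 2 and 4 hr, and Rem1 and Rem2 were added as the rest of the RGK family. Their values at 2 and 4 hr, against 0 hr and against each other, are therefore given as a description, with no test. The 12 and 24 hr values were tested against the same 0 hr arrays, which also entered the choice.

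The data were 10 Affymetrix expression arrays of lens explants from 3-day-old newborn rats, with no genetic change named for the animals. All explants were first kept overnight in 5 ng/mL FGF2, and the explants taken at that point were the 0 hr group. The other explants then received 100 ng/mL recombinant FGF2 for 2, 4, 12 or 24 hr, with 2 arrays from separate cultures at each time and 6 explants per assay. No explants held at 5 ng/mL for the later hours were analysed here, so a change may follow the FGF2 dose or the time in culture, and these cannot be told apart. The array names fall into 3 runs of numbers, with the 0 hr arrays, the 2 and 4 hr arrays, and the 12 and 24 hr arrays each in a run of their own. The sources used here do not say whether these were separate array runs. If they were, array run and time cannot be told apart in the comparisons with 0 hr, whereas 24 against 12 hr lies within one run of numbers.

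In the lens, FGF is the main signal that turns epithelial cells into elongated fiber cells, a change of shape that involves actin and cell adhesion. RGK proteins bind the beta subunits of voltage-gated calcium channels and lower channel activity at the cell surface, and Gem in addition binds the RhoGAP Gmip. Rnd proteins stay bound to GTP and oppose RhoA, through p190 RhoGAPs and, for Rnd3, through Rock1. RhoB sits on endosomes as well as the plasma membrane and is encoded by a short-lived mRNA that many stimuli induce, and Rab20 acts in the maturation of endosomes and phagosomes.

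RefSeq promoter entries (rat build GRCr8) were matched for 5 of the 8 genes, namely Rem1, Rem2, Rnd3, Rhob and Rab20. The 250 bases before the start are shown for the 3 of these genes that were high at 2 and 4 hr and for Rem2, which was high at 24 hr. Capitals mark matches, on either strand, to the CArG box bound by serum response factor, the TATA box TATAAA, the CCAAT box, the GC box GGGCGG, the cyclic AMP response element TGACGTCA, the AP-1 site TGANTCA, the Egr site GCGNGGGCG or the E-box CACGTG. The windows are chr3:55998495-55998744 on the minus strand for Rnd3, chr6:37085205-37085454 on the minus strand for Rhob, chr16:84721177-84721426 on the plus strand for Rab20 and chr15:31903722-31903971 on the plus strand for Rem2.
Rnd3: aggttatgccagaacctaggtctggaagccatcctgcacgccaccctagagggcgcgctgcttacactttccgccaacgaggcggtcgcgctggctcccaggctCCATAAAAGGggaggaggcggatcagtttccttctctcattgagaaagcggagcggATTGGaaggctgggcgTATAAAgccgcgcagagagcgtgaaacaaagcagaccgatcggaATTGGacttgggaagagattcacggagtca
Rhob: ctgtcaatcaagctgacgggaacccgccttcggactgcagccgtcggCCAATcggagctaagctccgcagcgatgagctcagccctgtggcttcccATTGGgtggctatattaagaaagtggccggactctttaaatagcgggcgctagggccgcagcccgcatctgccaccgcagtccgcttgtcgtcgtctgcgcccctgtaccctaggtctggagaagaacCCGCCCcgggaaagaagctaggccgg
Rab20: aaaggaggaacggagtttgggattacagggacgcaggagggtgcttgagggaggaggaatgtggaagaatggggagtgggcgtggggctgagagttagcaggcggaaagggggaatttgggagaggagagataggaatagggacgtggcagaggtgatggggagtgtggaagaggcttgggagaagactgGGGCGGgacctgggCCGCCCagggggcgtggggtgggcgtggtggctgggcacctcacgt
Rem2: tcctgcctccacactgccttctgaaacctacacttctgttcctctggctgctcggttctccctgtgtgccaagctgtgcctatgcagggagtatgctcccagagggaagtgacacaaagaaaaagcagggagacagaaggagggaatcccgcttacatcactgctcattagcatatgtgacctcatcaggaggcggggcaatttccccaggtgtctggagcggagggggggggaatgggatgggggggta

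The Rnd3 window held a CArG box from 146 to 137 bases before the start, the TATA letters from 74 to 69, and CCAAT on the minus strand at 90 to 86 and at 30 to 26. Of 33469 rat promoter windows of the same length, 1.5% held a CArG box and 12.9% held TATAAA. The Rhob window held CCAAT at 203 to 199 and, on the minus strand, at 154 to 150, and CCAAT was present in 34% of all windows. A GC box was found in the Rab20 window at 60 to 55 and 46 to 41, in the Rhob window at 26 to 21, and 4 times in the Rem1 window, against 30.5% of all windows. None of the 8 motifs was found in the Rem2 window. The cyclic AMP response element, AP-1 site, Egr site and E-box were in none of the 5 windows and in 1.59%, 6.34%, 4.29% and 5.59% of all windows. A match is a match of letters only, and binding was not measured.

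Gem was low at the start and high at 2 and 4 hr. Its probe set (1382351_at) read 4.83 and 4.59 at 0 hr on the log2 intensity scale, 8.06 and 9.11 at 2 hr, and 8.18 and 8.85 at 4 hr. At 12 hr it read 5.65 and 5.88, and at 24 hr 4.13 and 4.74. All 4 early arrays lay above all others, the 2 and 4 hr arrays overlapped each other, and so did the 0 and 24 hr arrays. The log2 change against 0 hr was 3.87 at 2 hr and 3.80 at 4 hr (standard error 0.35, n = 2 arrays per time). The 0 hr readings, 24.1 and 28.4 in linear intensity, lay below the arrays' lower quartiles (28.9 to 30.7), and no detection calls were used. At 12 hr the mean was still 1.05 above 0 hr, with adjusted p = 0.071 by limma with Benjamini-Hochberg adjustment. That call depended on the fit, since the adjusted p was 0.0075 without the 2 and 4 hr arrays and 0.024 without either 2 hr array. From 12 to 24 hr the mean differed by -1.33 (adjusted p = 0.074), which became 0.0096 without the 2 and 4 hr arrays and 0.0288 without either 2 hr array. In explants of mixed content, fewer cells of a type and less RNA per cell cannot be told apart.

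Rrad, which encodes Rad and was first described in muscle, had its highest values at 2 hr. Its probe set (1367862_at) read 5.89 and 6.11 at 0 hr, 9.25 and 10.60 at 2 hr, and 7.82 and 9.01 at 4 hr. It then read 5.22 and 5.32 at 12 hr and 5.03 and 5.34 at 24 hr, so that all 4 later arrays lay below both 0 hr arrays. The log2 change against 0 hr came to 3.93 at 2 hr and 2.42 at 4 hr (standard error 0.45). The mean was 1.51 lower at 4 hr than at 2 hr, with no overlap between these arrays, although the replicates of each time lay over 1 log2 unit apart. At 12 and 24 hr the change was -0.73 and -0.81, with adjusted p = 0.34 and 0.27. Without the 2 and 4 hr arrays, the 12 hr difference had adjusted p = 0.0053 and the 24 hr difference 0.0033.

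Rem2, an RGK gene known best from nerve and endocrine cells, moved late. The brighter of its probe sets (1374035_at) read 6.81 and 6.92 at 0 hr, 6.55 and 6.54 at 2 hr, and 6.37 and 6.44 at 4 hr. It read 7.18 and 7.04 at 12 hr and 8.16 and 7.72 at 24 hr. No neighbouring times overlapped, and the order from high to low was 24, 12, 0, 2 and 4 hr. Rem2 rose by 1.08 ± 0.14 (log2, standard error) from 0 to 24 hr (adjusted p = 0.0010) and by 0.83 from 12 to 24 hr (adjusted p = 0.0138). The later step lost its call without 12 hr replicate 1 (adjusted p = 0.0707) and without 12 hr replicate 2 (0.131). The dimmer probe set (1369564_at) had the same order of means and a change of 0.54 ± 0.19 at 24 hr (adjusted p = 0.085). The correlation between the 2 Rem2 probe sets over 10 arrays was 0.862.

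Rem1, the remaining RGK gene, stayed low on every array. Its brighter probe set (1396158_at) lay between 4.97 and 5.38 on all 10 arrays, with the lowest values at 4 hr, and no change from 0 hr at 12 or 24 hr passed the test (0.12 and 0.07, standard error 0.08). The other (1378684_at) read 4.97 and 4.95 at 0 hr and 5.37 and 5.53 at 24 hr. This set rose by 0.49 ± 0.11 (adjusted p = 0.0169), a call lost without either 0 hr array (0.0867 and 0.0953) and without 24 hr replicate 2 (0.118). The Rem1 probe sets correlated at 0.35. Both sets lay close to the lower quartile of each array, which was 28.9 to 30.7 in linear intensity.

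**Figure D1:**
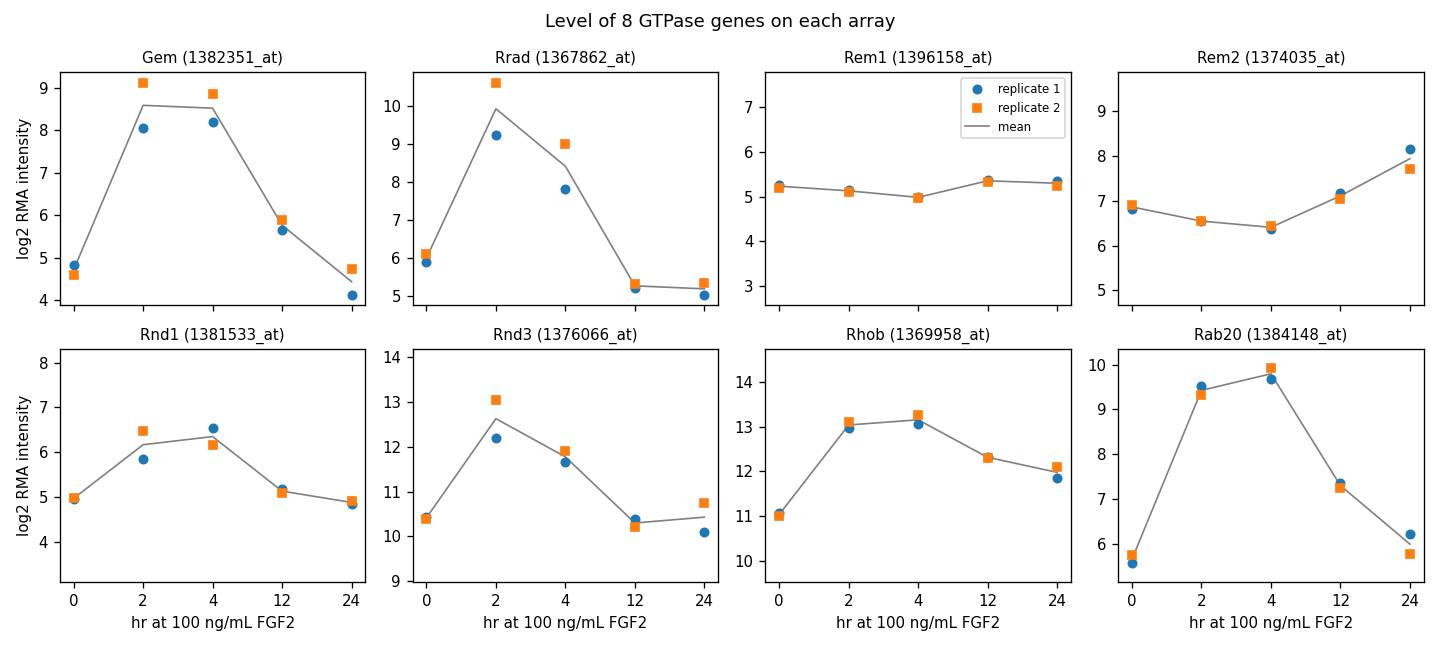
Log2 RMA intensity of the brightest probe set of each gene on each of the 10 arrays, against hr at 100 ng/mL FGF2 (0 hr is 5 ng/mL, and the hours are evenly spaced, not to scale). Circles and squares are replicate 1 and 2 and the line joins their means. Gem, Rrad, Rnd1, Rnd3, Rhob and Rab20 were highest at 2 or 4 hr, Rem1 stayed between 4.97 and 5.38, and Rem2 was highest at 24 hr.

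Rnd3, also called RhoE, was high at 2 hr on all 3 of its probe sets and differed from 0 hr by no more than 0.21 in size at 12 hr. The brightest (1376066_at) read 10.44 and 10.39 at 0 hr, 12.21 and 13.05 at 2 hr, and 11.65 and 11.90 at 4 hr. It read 10.38 and 10.22 at 12 hr and 10.10 and 10.76 at 24 hr. Both 2 hr arrays lay above both 4 hr arrays, and the 24 and 0 hr arrays overlapped. The change against 0 hr was 2.21 at 2 hr and 1.36 at 4 hr (standard error 0.28), a 4.64-fold and a 2.57-fold difference. The other probe sets gave 2.48 and 2.76 at 2 hr and 1.15 and 1.66 at 4 hr, and the 3 sets correlated at 0.955 to 0.987 with each other.

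The difference of Rnd3 between 4 and 2 hr was -0.85, -1.33 and -1.10 on the 3 probe sets (standard errors 0.28, 0.30 and 0.20). On each set the 4 hr arrays lay below the 2 hr arrays. The 24 against 0 hr changes of the 3 sets were 0.01, 0.19 and -0.30, and none passed the test.

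Rnd1, which binds plexins and loosens cell adhesion, was dim and had a smaller early difference. Its probe set (1381533_at) read 4.96 and 4.98 at 0 hr, 5.85 and 6.48 at 2 hr, and 6.54 and 6.16 at 4 hr. It read 5.18 and 5.08 at 12 hr and 4.85 and 4.90 at 24 hr. The early arrays did not overlap the others but overlapped each other. The change was 1.20 at 2 hr and 1.38 at 4 hr (standard error 0.19), and 0.16 and -0.09 at 12 and 24 hr (adjusted p = 0.65 and 0.81). Rnd2, the remaining Rnd gene, differed from 0 hr by at most 0.13 in size at any time (-0.13 at 2 hr, standard error 0.12), with no call.

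Rhob kept part of its early difference to the end of the course. Its probe set (1369958_at) read 11.08 and 11.00 at 0 hr, 12.96 and 13.11 at 2 hr, and 13.06 and 13.25 at 4 hr. It read 12.33 and 12.30 at 12 hr and 11.86 and 12.10 at 24 hr. Every later array lay above both 0 hr arrays, and only the 4 and 2 hr arrays overlapped. The change was 2.00 at 2 hr and 2.11 at 4 hr (standard error 0.11). Rhob was 1.28 above 0 hr at 12 hr (2.42-fold, adjusted p = 0.00018) and 0.94 above it at 24 hr (1.92-fold, adjusted p = 0.00074). These are 60.4% and 44.5% of the log2 difference at 4 hr. The step from 12 to 24 hr was -0.34 (adjusted p = 0.15).

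Rab20 had the largest difference among these genes, 4.14 on the log2 scale at 4 hr. Its brightest probe set (1384148_at) read 5.56 and 5.75 at 0 hr, 9.52 and 9.33 at 2 hr, and 9.67 and 9.92 at 4 hr. It read 7.36 and 7.24 at 12 hr and 6.21 and 5.78 at 24 hr. No neighbouring times overlapped, with the order 4, 2, 12, 24 and 0 hr. The change was 3.77 at 2 hr (13.6-fold) and 4.14 at 4 hr (17.6-fold, standard error 0.16). At 12 hr Rab20 was 1.64 above 0 hr (3.13-fold, adjusted p = 0.00027), and from 12 to 24 hr it fell by 1.31 (adjusted p = 0.0043). At 24 hr the remaining difference of 0.34 did not pass the test (adjusted p = 0.19).

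The 3 probe sets of Rab20 did not behave alike. On 1381836_at the log2 change came to 1.26 at 2 hr and 1.80 at 4 hr, with 0.38 left at 12 hr (standard error 0.11). The 12 hr rise on this set passed at adjusted p = 0.0413, which became 0.169 and 0.167 without 0 hr replicate 1 or 2, and 0.186 and 0.142 without 12 hr replicate 1 or 2. On the same set the 4 hr mean was 0.54 above the 2 hr mean. On 1398422_at the change from 0 hr stayed between -0.34 and -0.08 at all times, with none called. The first 2 sets correlated at 0.966 over 10 arrays, and the last correlated with them at 0.195 and 0.135. The part of the transcript that each set reads was not examined.

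**Figure D2:**
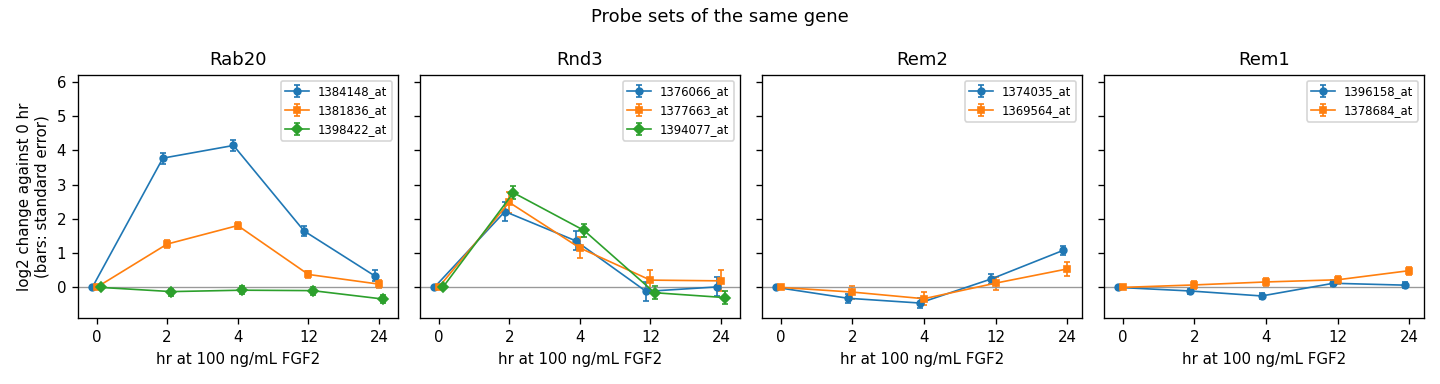
Log2 change against 0 hr of every probe set of Rab20, Rnd3, Rem2 and Rem1 over the hr at 100 ng/mL FGF2 (evenly spaced). Bars are limma standard errors, n = 2 arrays per time. The 3 Rnd3 sets run together, while the Rab20 sets reach 4.14, 1.80 and -0.08 at 4 hr.

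The late times were counted over all 14 probe sets by adjusted p under 0.05. At 12 hr 3 of 14 rose (Rhob and 2 sets of Rab20), against 8.94% of all probe sets, and none fell, against 10%. At 24 hr 3 of 14 rose (Rhob, Rem2 and 1 set of Rem1), against 9.29%, and none fell, against 10.9%. From 12 to 24 hr 1 rose (Rem2) and 1 fell (Rab20), against 2.22% and 2.12%. The comparisons with 0 hr share the same 0 hr arrays.

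**Figure D3:**
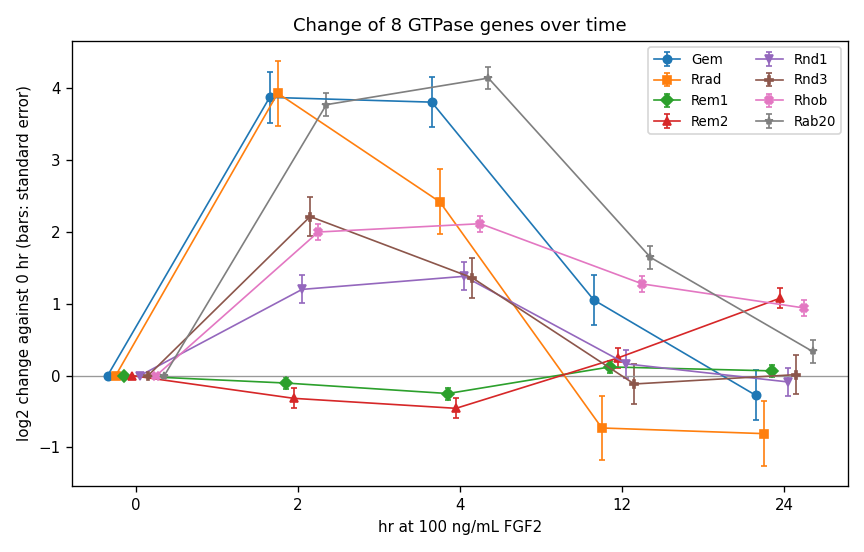
Log2 change against 0 hr of the brightest probe set of each gene at each hr of 100 ng/mL FGF2 (evenly spaced, points shifted sideways for legibility). Bars are limma standard errors, n = 2 arrays per time, and the change at 0 hr is 0 by definition. Rhob (0.94) and Rem2 (1.08) are furthest above 0 at 24 hr, while Gem, Rrad, Rnd1, Rnd3 and Rab20 are back within 0.81 of it.

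The early courses came in different shapes. The 2 hr arrays of Rrad and of Rnd3 (brightest set) lay above their 4 hr arrays without overlap, and the courses of these genes correlated at 0.977 over the 10 arrays. For Gem, Rnd1 and the brightest set of Rab20 the mean changed by -0.07, 0.18 and 0.37 from 2 to 4 hr, with correlations of 0.957 between Gem and Rnd1 and 0.964 between Gem and Rab20. The 4 hr arrays of that Rab20 set lay above its 2 hr arrays without overlap. Rrad and Rnd3 correlated with Gem, Rnd1 and Rab20 at 0.826 to 0.92. Rem2 correlated with these 5 genes at -0.789 to -0.669, with Rhob at -0.463 and with Rem1 at 0.742. The points share arrays and cultures, so these values only describe the course.

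The replicates were furthest apart at the early times. The standard deviation of the difference between replicate arrays over all probe sets was 0.288 at 2 hr and 0.300 at 4 hr, and 0.161 to 0.213 at the other times. The 9 probe sets high at both early times measured 6 genes, so they are not 9 separate observations. Of these sets, 7 were higher in replicate 2 than in replicate 1 at 2 hr and 8 at 4 hr. The shares of all probe sets were 45.7% and 50.3%. For Rrad the gap between replicates was 1.36 at 2 hr and 1.19 at 4 hr, and for Gem 1.05 and 0.66. For Rhob it was 0.15 and 0.19.

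Several measures of RNA and cell content moved with the early times. The 5S rRNA control read 183 to 209 in linear intensity at 2 and 4 hr and 112 to 154 at the other times. The GAPDH control's 5' reading was below its 3' reading by 0.17 to 0.30 log2 units at 2 and 4 hr, by 0.06 to 0.14 at 12 and 24 hr and by at most 0.05 at 0 hr. For beta-actin the gap was 1.37 to 2.13 at 2 and 4 hr, 1.12 to 1.43 at 0 and 12 hr, and 1.75 to 1.88 at 24 hr. Most lens markers were bright, with a summed intensity of 8 lens epithelium markers between 71283 and 76168 and of 8 fiber markers between 27341 and 37768. The brightest epithelium markers were Cryaa (14.46 to 14.62) and Cryab (14.11 to 14.36), so the sum says little of the others. At 24 hr both arrays read lower than both 0 hr arrays for Pax6, Foxe3 and Cdh1. They read higher for Six3, Prox1 and Maf. The summed level of 5 pericyte markers was 1742 to 1911 at 0 hr, 6449 to 8284 at 2 hr, 5481 to 7839 at 4 hr and 765 to 1090 later, most of it from Des, which encodes the intermediate filament desmin. Acta2, smooth muscle actin, read 8.19 to 8.54 at 2 and 4 hr and 7.43 to 7.70 otherwise, and Pdgfrb read 6.65 to 7.12 at 2 and 4 hr and 5.90 to 6.55 otherwise. Rgs5 lay between 4.83 and 6.31 and Cspg4 between 5.04 and 6.51, both with overlap between the early and the other arrays. The 6 macrophage markers summed to 201 to 415, the 6 pigment epithelium markers to 200 to 224 and the 5 measured endothelial markers to 874 to 1770. Fibroblast markers summed to 9042 to 13334, most of it from Pdgfra (12.93 to 13.41). Of the others, Col1a2 read 9.93 to 11.07, Dcn 6.26 to 7.91, and Col1a1, Col3a1 and Lum 3.57 to 6.65. The 2 measured red blood cell markers summed to 1292 to 3586. The part of these values in the levels of Gem, Rrad, Rnd1, Rnd3, Rhob and Rab20 was not tested.

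Among the relatives and partners of these genes, 210 of 238 listed genes were measured, each by its brightest probe set. The lists were made with earlier results known. Of 118 calls on the 46 list genes named here, 64 were kept when each array was left out in turn. Where 1 array is named below for a lost call, its omission gave the largest adjusted p, and other omissions could lose the call too. At 2 hr 32 of 210 (15.2%) were called higher than at 0 hr and 13 (6.19%) lower, and at 4 hr 52 (24.8%) higher and 26 (12.4%) lower. Over all probe sets the shares were 8.61% higher and 8.88% lower at 2 hr, and 11.9% and 11.9% at 4 hr. These bases differ, here and in the lists below. List genes count by their brightest probe set, and the other shares count every probe set, including 9780 with no symbol. The part of this in the differences was not tested. The calls at 12 hr were 35 higher (16.7%) and 38 lower (18.1%), and at 24 hr 38 (18.1%) and 34 (16.2%), beside the shares of all probe sets given for those times (8.94% and 10%, 9.29% and 10.9%). From 2 to 4 hr 15 (7.14%) were higher and 6 (2.86%) lower, against 2.24% and 1.5%. The median change of these genes was 0.04 at 4 hr, against -0.02 over all probe sets, and at 24 hr both were 0.03.

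Rhog, a Rac-like GTPase of membrane ruffling, rose at all 4 times, by 0.66, 1.04, 0.46 and 0.51 (standard error 0.10, adjusted p = 0.00023 at 4 hr). Rhoa, the GTPase that Rnd proteins oppose and a close relative of RhoB, rose by 0.31 at 4 hr (adjusted p = 0.039) and had changes of 0.12, 0.11 and 0.09 at the other times. Rhobtb3 fell by 0.76 at 4 hr and was 1.03 higher at 24 than at 12 hr (adjusted p = 0.0024). Leaving out 1 array at a time lost the 4 hr call of Rhoa for 7 of the 10 arrays. The calls of Rhog were lost for 4 arrays at 12 hr and for 1 at 24 hr.

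Of 36 exchange factors, which load small GTPases with GTP, 8 (22.2%) were called higher and 8 (22.2%) lower at 4 hr, against 11.9% and 11.9% of all probe sets. At 24 hr 2 (5.56%) were higher and 10 (27.8%) lower, against 9.29% and 10.9%. Tiam1, an exchange factor of Rac, changed by 0.10 at 2 hr and rose by 2.76 at 4 hr (standard error 0.24, adjusted p = 0.00013), and the step from 2 to 4 hr was 2.66 (adjusted p = 0.0012). Arhgef3, which acts on RhoA and RhoB, rose by 1.27 and 1.75 at 2 and 4 hr and by 0.71 at 12 hr, while Net1 fell at all 4 times, with changes of -1.12 to -0.67. Vav2 and Arhgef4 fell at 4, 12 and 24 hr, with changes of -1.22 and -1.83 at 12 hr. Plekhg2 rose by 1.00 and 1.37 at 2 and 4 hr, Plekhg3 fell at 12 and 24 hr (-1.11 and -1.26), and Mcf2l fell by 1.24 at 4 hr (adjusted p = 0.0003). The 12 hr call of Arhgef3 was lost without 12 hr replicate 2 (0.098), and those of Net1 at 2 hr without 0 hr replicate 1 (0.128) and at 24 hr without 24 hr replicate 2 (0.0546).

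Of 40 RhoGAPs and dissociation inhibitors, which turn GTPases off or hold them in the cytosol, 15 were called higher and 8 lower at 4 hr, and 7 and 8 at 24 hr. The p190 RhoGAPs that Rnd proteins act through went apart at 4 hr, where Arhgap35 rose by 0.43 (adjusted p = 0.014) and Arhgap5 fell by 0.88 (adjusted p = 0.047). Chn2, which encodes the RacGAP beta-chimaerin, fell by 2.15 at 4 hr (standard error 0.20, adjusted p = 0.00017) and differed by 0.44 at 24 hr with no call. Arhgap8 fell by 1.97 at 24 hr (adjusted p = 7.5e-05) and Arhgap26, which acts on RhoA and Cdc42, fell by 1.48 (adjusted p = 0.0016), while Arhgap6 rose by 1.09 at 12 hr. Arhgap24, which acts on Rac, fell by 0.95 at 2 hr and fell by 2.08 at 12 hr. Stard13, a RhoGAP, rose by 0.77 and 1.16 at 2 and 4 hr and then fell, with changes from 0 hr of -0.71 and -0.86 at 12 and 24 hr. Gmip, the RhoGAP that Gem binds, rose by 0.36 and 0.59 at 2 and 4 hr (adjusted p = 0.039 and 0.0031). Leaving out 1 array at a time lost the Arhgap5 call and the 2 hr Gmip call for 7 of the 10 arrays each. The Arhgap35 call was lost for 2 arrays. Calls at 2 hr were lost for 3 arrays for Arhgap24 and for 1 array each for Stard13 and Arhgap8. At 12 hr 3 arrays each lost the calls of Stard13 and Arhgap26, and at 24 hr 4 arrays lost that of Arhgap6.

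Of 28 RhoA effectors and cofilin pathway genes, 7 were called higher and 1 lower at 2 hr, 8 and 3 at 4 hr, 6 and 4 at 12 hr, and 5 and 5 at 24 hr. Rock2, a kinase that RhoA activates, rose by 0.53 and 0.89 at 2 and 4 hr (standard error 0.10), and Rock1, which Rnd3 binds, had changes from -0.64 to 0.16 with no call (standard error 0.22). Ezr, which encodes the membrane-actin linker ezrin, rose by 0.85 and 1.02 at 2 and 4 hr. Myl9, a myosin light chain, fell by 1.30 at 12 hr and was at -0.98 at 24 hr (adjusted p = 0.0041). Limk2, a cofilin kinase, rose by 0.51 at 2 hr (adjusted p = 0.0223), a call lost on leaving out any of 4 of the 10 arrays. It fell at 12 and 24 hr (-1.03 and -0.99). Rhpn2, which encodes the RhoA-binding protein rhophilin 2, fell at 2, 4 and 24 hr (-2.01, -1.63 and -1.19). Leaving out 1 array at a time lost its 4 hr call for 1 of the 10 arrays and its 24 hr call for 5. The 2 hr call of Rock2 was lost without 0 hr replicate 2 (0.069).

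Of 23 measured RGK partners, 3 were called higher and 2 lower at 2 hr, 8 and none at 4 hr, 5 and 3 at 12 hr, and 5 and 1 at 24 hr. Camk2b and Camk2d, subunits of calmodulin-dependent kinase II, rose at 4 hr by 1.01 and 0.89, and Ywhag, a 14-3-3 protein, by 0.72. Cacna1c, the pore subunit of an L-type calcium channel, fell by 1.26 at 2 hr (adjusted p = 0.0036) and fell by 0.70 at 12 hr (adjusted p = 0.04). Cacnb3, a channel beta subunit, had changes of -0.14 to 0.44 with no call (standard error 0.14). Leaving out 1 array at a time lost the 4 hr call of Camk2d for 2 of the 10 arrays and the 12 hr call of Cacna1c for 5.

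Of 19 measured Rnd partners, 2 were called higher and 1 lower at 2 hr, 4 and 2 at 4 hr, 5 and 3 at 12 hr, and 8 and 4 at 24 hr. Plxna1, a semaphorin receptor, rose by 0.71 and 1.19 at 2 and 4 hr. Plxnb1 fell by 0.72 at 24 hr and Plxnb2 fell by 0.83. Unc5b, a netrin receptor, rose by 2.05 at 12 hr (adjusted p = 0.00017) and fell by 1.44 from 12 to 24 hr (adjusted p = 0.0046). Ubxn11, which encodes the Rnd-binding protein socius, rose by 0.84 and 1.16 at 12 and 24 hr. Calls were lost for Plxnb1 without 24 hr replicate 2 (0.0733), for the fall of Unc5b without 12 hr replicate 2 (0.0526) and for Ubxn11 at 12 hr without 0 hr replicate 2 (0.0532).

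Of 25 other Ras family genes, 2 were called higher and 2 lower at 2 hr, 5 and 4 at 4 hr, and 5 and 6 at both 12 and 24 hr. Mras fell at all 4 times, with changes of -1.35 to -0.78, and Rasl12 fell by 1.97 at 4 hr. Rasd1, a dexamethasone-induced Ras protein, fell at 12 and 24 hr, with changes of -0.97 and -1.32. Rerg rose by 1.30 at 24 hr (adjusted p = 0.0064), a call lost without 0 hr replicate 2 (0.0527). Leaving out 1 array at a time lost the calls of Rasd1 for 4 of the 10 arrays at 12 hr and 2 at 24 hr. Those of Mras were lost for 4 arrays at 2 hr, 6 at 12 hr and 2 at 24 hr.

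Of 26 Rab genes of endosomes, phagosomes and related organelles, 3 (11.5%) were called higher and none lower at 2 hr, and 2 (7.69%) and 1 (3.85%) at 4 hr, against 8.61% and 8.88%, and 11.9% and 11.9%, of all probe sets. The counts were 1 and 1 at 12 hr and 2 and 1 at 24 hr. Rab7b, a Rab of late endosomes and the Golgi, rose by 2.13 and 2.14 at 2 and 4 hr (standard error 0.13) and differed by -0.18 and 0.41 at 12 and 24 hr with no call. Rab7a, of late endosomes, rose by 0.36 and 0.31, and Rab5a, of early endosomes, and Rab32 had no call. Rab31, of the Golgi and endosomes, rose by 1.35 at 24 hr (standard error 0.41, adjusted p = 0.049), a call lost on leaving out any of 5 of the 10 arrays. The Rab7a calls were lost without 0 hr replicate 1 (0.154 and 0.18). Among these Rabs, Rab7b had the change nearest in size to that of Rab20 at 2 hr and at 4 hr.

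**Figure D4:**
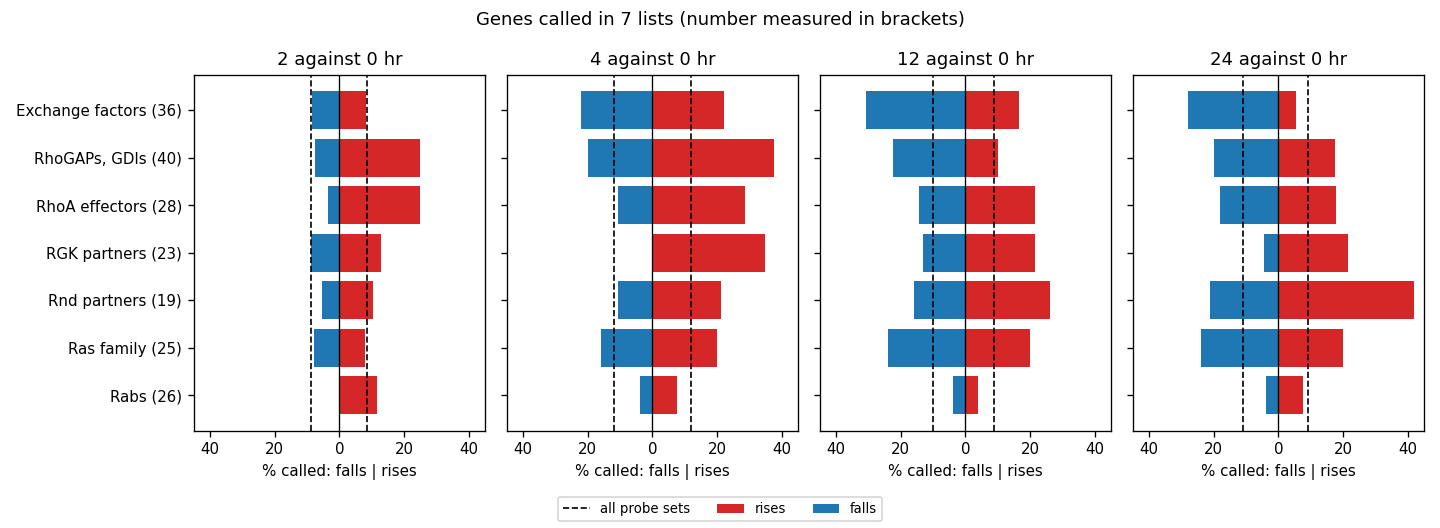
Share of the measured genes of 7 lists (number measured in brackets) that rose (right) or fell (left) by adjusted p under 0.05 against 0 hr, in %. Dashed lines mark the shares over all 31042 probe sets. RGK partners had 8 rises and no fall at 4 hr, and exchange factors had 10 falls and 2 rises at 24 hr.

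The genes with the course most like each member were taken as the 3 highest Pearson correlations over the 10 arrays among 2320 genes that spanned at least 1 log2 unit. For Gem these were Vps37c (0.995), Anxa1 (0.993) and Il6r (0.992), and for Rrad LOC100910424 (0.991), Ifrd1 (0.990) and the immediate early gene Fos (0.990). For Rnd3 they were Rara (0.987), Arc (0.981) and Klf4 (0.980), and for Rhob Il1r1 (0.992), Egr1 (0.992) and Pdlim7 (0.984). For Rnd1 they were Flnc (0.975), Clcf1 (0.973) and Rrp8 (0.969), and for Rab20 Wdr1 (0.996), B3galnt1 (0.993) and Pdp1 (0.989). Rem2 ran with Dnph1 (0.987), Nme4 (0.984) and Fgfbp3 (0.980), and Rem1 did not span enough to be matched. These values describe likeness of course across 5 times and say nothing of control.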

How the data were processed

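RNA (50 ng) was amplified with the NuGEN Ovation system. The authors extracted RMA values and deposited them as linear intensity, with version and genome build not given in the sources used here. RMA makes the arrays share a distribution, so a shift common to most genes would not show. Values were taken to log2 here, and 57 array control sets were left out. Of 31042 probe sets, 20826 carried 1 symbol, 436 several and 9780 none. limma 3.58.1 in R 4.3.3 was fitted over all 10 arrays with time as the factor, with Benjamini-Hochberg adjustment over all probe sets and a threshold of 0.05; it was tested on simulated data. With 2 arrays per time, p-values measure the spread between these samples only, and the number of arrays limits the precision. Members, lists and tests were chosen with earlier results of these data known. Named genes were all members, list genes called with a log2 change of 1 or more against 0 hr, and a set of direct partners. Rhobtb3, Camk2d, Ywhag and Gmip were named after their values were seen. Alternatives were other fits, scalings and filters, a replicate block and leaving out each array. A fit without the 2 and 4 hr arrays and array weights were added after seeing the data.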

Additional observations from a re-analysis of the deposited data

How the results depend on the processing

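Alternatives gave 525 values for the members' brightest probe sets, called or not, at 12 and 24 hr and from 12 to 24 hr. Of these 499 kept their side of the threshold, 23 gained a call, 3 lost it and 0 reversed. Only the called changes, all of Rhob, Rem2 or Rab20, could lose a call. The 3 losses were among the 22 values of Rem2 from 12 to 24 hr. For the 46 named list genes 5437 of 5916 values, called or not in the reported fit, kept their side. Of the others 208 gained a call, 271 lost it and 0 reversed. Counts of calls moved more. Fitting only the times compared gave 5 member probe sets called at 12 hr and 5 at 24 hr against 0 hr (3 and 3 in the reported fit), and 0 list genes from 2 to 4 hr (21 reported). The methods' analysis of variance without adjustment gave 5 members at 12 hr and 44 list genes from 12 to 24 hr (18 reported). Unadjusted p from limma gave 5 members at 24 hr and 6 from 12 to 24 hr (2 reported), and 69 list genes at 2 hr (45 reported), 65 from 2 to 4 hr and 55 from 12 to 24 hr. Without the 2 and 4 hr arrays 5 members were called at 12 hr and 5 at 24 hr, and 29 list genes from 12 to 24 hr. Array weights gave 5 members at 24 hr, and 8 list genes from 2 to 4 hr and 33 from 12 to 24 hr. Differences between replicate 1 and 2 correlated between times at -0.147 to 0.327. The only positive value was 0.327 between 2 and 4 hr, so replicates of the same number shared some deviation at those times. With the replicate block 13 list genes were called from 2 to 4 hr. Gem gained a call at 12 hr (0.0272) and from 12 to 24 hr (0.0352), and the dimmer Rem2 set at 24 hr (0.0345). With this block 1 Rab20 set lost a call at 12 hr (0.0518). Leaving out each array gave 2 to 4 members at 12 hr, 2 to 4 at 24 hr and 1 to 3 from 12 to 24 hr. For list genes it gave 16 to 49 at 2 hr, 46 to 85 at 4 hr, 34 to 77 at 12 hr, 36 to 79 at 24 hr, 9 to 24 from 2 to 4 hr and 1 to 20 from 12 to 24 hr. A time with a lone array is then assumed to vary like the others. The causes of these shifts were not tested.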
